A study of Homo sapiens with 12 samples.

Results

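The genes described here are 6 inhibitors of the cyclin-dependent kinases and 4 cyclins of the G1 phase, 10 genes of the 58721 in the expression tables, taken by symbol. The inhibitors are CDKN1A, CDKN1B and CDKN1C (the CIP/KIP family) and CDKN2B, CDKN2C and CDKN2D (the INK4 family), and the cyclins are the D-type CCND1, CCND2 and CCND3 and the E-type CCNE2. Their mRNA was measured in 2 human pancreatic cancer cell lines, Pa-Tu-8902 and MIA PaCa-2. Cells of both lines had been stably selected for a Tet-pLKO-puro vector whose hairpin against GOT1, the cytosolic aspartate transaminase, is induced by doxycycline (dox). The 4 groups were iDox-shGOT1 cells of either line, kept without dox or given dox for 5 days, with 3 libraries each and 12 in all. The untreated cells carried the uninduced hairpin, no dox-treated cells without the hairpin were analysed here, and so dox and GOT1 loss cannot be told apart. The labels give the dose of dox as 1 µM/mL and the study's methods as 1 µg/mL, and which hairpin the sequenced cells carried is not given in the sources used here.

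Progress through G1 is driven by D-type cyclins, which activate CDK4 and CDK6, and then by E-type cyclins, which activate CDK2. These kinases phosphorylate the pocket proteins and so release E2F transcription factors, which drive the genes of DNA replication. INK4 proteins bind CDK4 and CDK6 and keep cyclin D off them, whereas CIP/KIP proteins bind cyclin-kinase complexes and inhibit CDK2 above all. Much of the control of these proteins, CDKN1B and the cyclins in particular, is by degradation, which mRNA levels do not show.

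Libraries held 26226537 to 43406137 counts, so that the limit of 3 counts set by a gene without reads lies at 0.0691 to 0.114 CPM, for counting error only. The hairpin's target was low in every dox-treated library: GOT1 stood at 78.3 to 83.4 TPM (transcript counts scaled for length and depth) without dox and 3.29 to 4.51 TPM with dox in Pa-Tu-8902, and at 38.9 to 44.1 and 1.68 to 1.95 TPM in MIA PaCa-2. On the log2 scale GOT1 fell by 4.64 (SE 0.0925, adjusted p = 1.51e-09, edgeR) and by 4.76 (SE 0.111, adjusted p = 1.06e-09). The epithelial keratin KRT8 was at 1382 TPM or more in all libraries, but in MIA PaCa-2 the epithelial adhesion genes EPCAM and CDH1 did not exceed 0.36 and 0.22 TPM. Of the 5 fibroblast markers, DCN and LUM did not exceed 0.14 TPM in any library. The summed fibroblast list held 3.82 to 6.38 TPM without dox and 18 to 21.7 TPM with dox in Pa-Tu-8902, carried by COL1A1, and was 192 to 248 and 340 to 398 TPM in MIA PaCa-2, carried by COL1A2. Leukocyte markers summed to 3.23 to 9.98 TPM over the 12 libraries, carried by CD68 at 2.86 to 9.68 TPM, with PTPRC and CD3E at no more than 0.17 TPM. Endothelial markers summed to 0.09 to 1.2 TPM. MIA PaCa-2 untreated replicate 2 stood apart on the second component of that line, at 7.71 against -4.48 to 0.914 for the other 5 libraries. Leaving it out changed no call on the 8 genes tested for a dox effect in MIA PaCa-2. Libraries of a group are separate samples by their titles, and nothing in the labels says that they came from separate cultures, so the p-values measure the spread between these samples only.

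With dox, 5 of the 10 genes changed in Pa-Tu-8902 and 1 of the 8 that could be tested changed in MIA PaCa-2. CDKN1B, CDKN1C, CDKN2B and CCND3 rose in Pa-Tu-8902, and CDKN2D fell in both lines. A gene was called, and is said to have risen or fallen, where it changed by 1.5-fold or more and its adjusted p (edgeR's quasi-likelihood test, Benjamini-Hochberg) was under 0.01. In these bulk libraries fewer expressing cells and less mRNA per cell cannot be told apart. In Pa-Tu-8902 16.3% of 14949 genes were called, 9.22% higher and 7.12% lower, beside 4 higher and 1 lower of the 10. In MIA PaCa-2 12% of 14589 genes were called, 4.36% higher and 7.64% lower, beside 0 higher and 1 lower of the 8. At any fold, 6 of the 10 had an adjusted p below 0.01 in Pa-Tu-8902, where 38.1% of all genes did, and 3 of the 8 in MIA PaCa-2, where 27.2% did. Fold changes were fitted to TMM-normalized counts, and ratios of TPM can differ from them: over all genes the log2 ratio of mean TPM exceeded the fitted change by a median of 0.0776 and 0.0579 in the respective lines. The median log2 change of the genes tested here was 0.17 and 0.07 in the respective lines, against 0.0014 and -0.0089 over all genes. Normalized counts of the untreated and dox-treated libraries did not overlap for 8 of 10 genes in Pa-Tu-8902, where 58.5% of all genes tested were without overlap, and for 7 of 8 in MIA PaCa-2, where the share was 52.9%. In the descriptions of single genes below, overlap is of TPM and can differ. For example, CCND1 in Pa-Tu-8902 and CCND3 in MIA PaCa-2 overlapped in TPM but not in normalized counts.

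**Figure D1:**
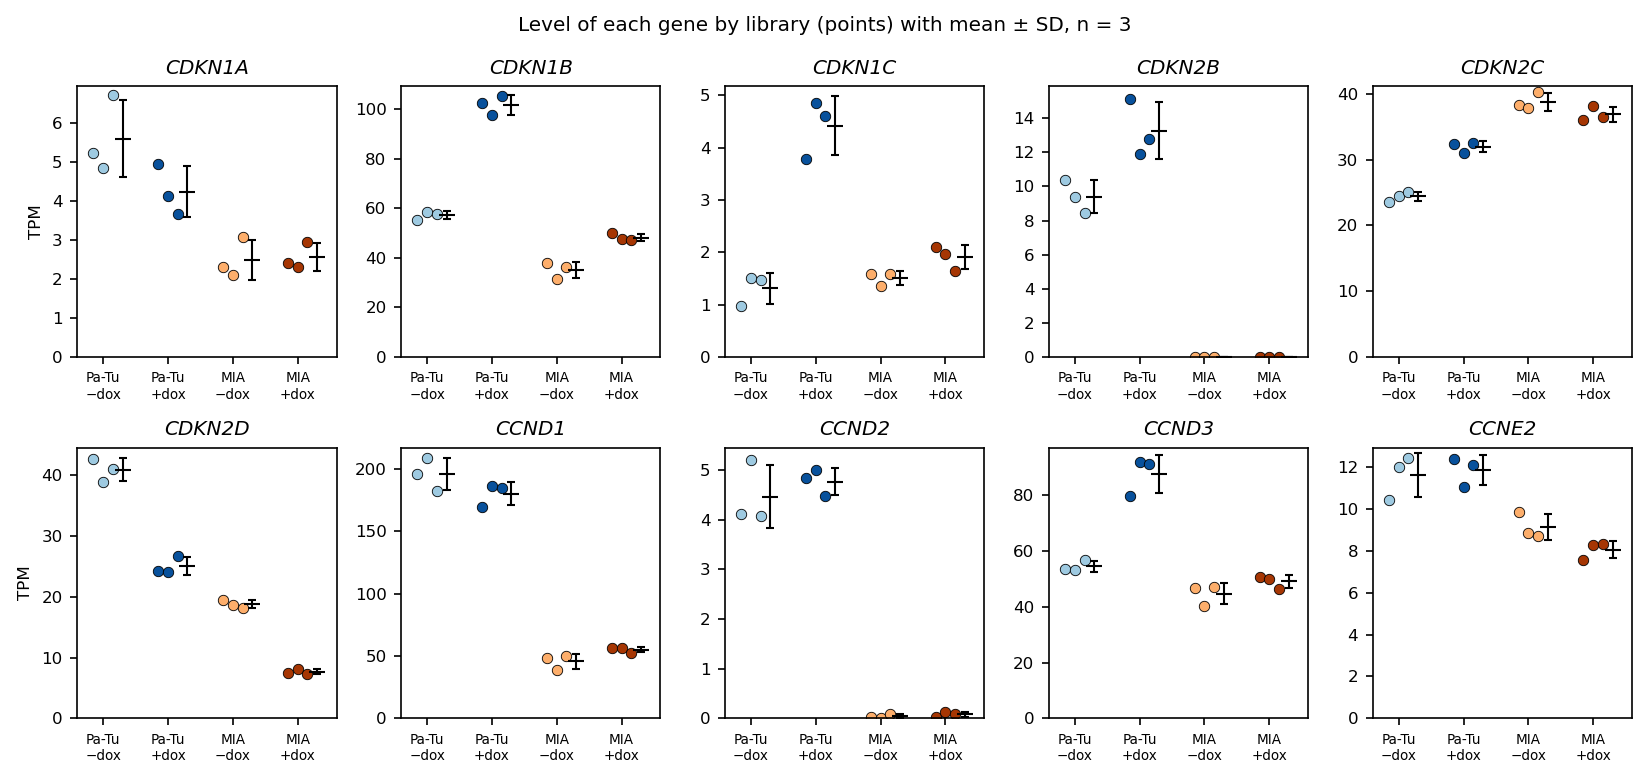
Level of each of the 10 genes in TPM (vertical axes, each from 0) in the 12 libraries, with 1 point per library and the mean ± SD of the 3 libraries of a group beside it. CDKN1B, CDKN1C and CCND3 lie higher with dox in Pa-Tu-8902, CDKN2D lies lower with dox in both lines, and CDKN2B is at 0 in all 6 MIA PaCa-2 libraries.

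Among the CIP/KIP genes, CDKN1B, which encodes p27, had the highest level of the 6 inhibitors described here in dox-treated cells of both lines. In Pa-Tu-8902 the 3 untreated libraries had 55.3, 58.5 and 57.9 TPM and the dox-treated ones 102.6, 97.6 and 105.3 TPM. Every dox-treated library was thus above every untreated one, and the fold change was 1.69 (log2 0.75, SE 0.052, adjusted p = 1.01e-06). In MIA PaCa-2 the untreated libraries had 37.9, 31.4 and 36.2 TPM and the dox-treated ones 49.9, 47.5 and 47.2 TPM. The MIA PaCa-2 groups did not overlap either, but the difference of 1.33-fold (log2 0.41, SE 0.058, adjusted p = 0.000208) was below the fold limit, so CDKN1B was not called there. Nearly all of its estimated expression came from 1 transcript, CDKN1B-201, with 99.2% or more of the gene's TPM in every library. CDKN1B lies at chr12:12685498-12722369 on the + strand of GRCh38.

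The sequences before the RefSeq starts of CDKN1B, CDKN2B and CDKN2D are shown because these inhibitors moved in Pa-Tu-8902, 2 of them up and 1 down. They are RefSeq sequences of GRCh38.p14, read 5′ to 3′ along the gene. Entries were found for 6 of the 10 genes, CDKN1C not among them, and CCND3, with windows at several starts, is not shown. Capitals mark GGGCGG, the letters bound by SP1, and CCAAT, the CCAAT box, on either strand (CCGCCC and ATTGG on the other strand). For CDKN1B and CDKN2B all 250 bases before the RefSeq start are given, and for CDKN2D the 170 bases before its farthest annotated exon. The CDKN1B stretch ends at the start of CDKN1B-201 and lies within the span given above, since other annotated transcripts of the gene start farther upstream.
CDKN1B, chr12:12717118-12717367, strand +: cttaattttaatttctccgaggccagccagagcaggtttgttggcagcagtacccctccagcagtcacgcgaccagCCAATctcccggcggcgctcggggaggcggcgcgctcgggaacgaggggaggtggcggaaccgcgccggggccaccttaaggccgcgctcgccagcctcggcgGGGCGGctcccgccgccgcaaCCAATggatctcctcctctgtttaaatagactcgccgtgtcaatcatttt
CDKN2B, chr9:22009306-22009555, strand -: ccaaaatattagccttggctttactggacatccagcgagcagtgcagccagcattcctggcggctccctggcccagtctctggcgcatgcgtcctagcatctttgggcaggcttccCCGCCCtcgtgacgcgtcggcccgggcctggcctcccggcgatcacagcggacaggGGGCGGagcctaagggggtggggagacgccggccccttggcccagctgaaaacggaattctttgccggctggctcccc
CDKN2D, chr19:10569060-10569229, strand -: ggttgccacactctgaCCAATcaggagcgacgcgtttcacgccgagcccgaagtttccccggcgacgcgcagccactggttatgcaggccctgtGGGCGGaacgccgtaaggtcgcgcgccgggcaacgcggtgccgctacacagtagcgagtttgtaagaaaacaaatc

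All 3 stretches were rich in G and C, at 64.4%, 66.4% and 62.4%, and none had the E2F letters TTTCGCGC, TTTGGCGC or TTTGGCGG or the forkhead letters GTAAACA on either strand. CDKN1B had 1 GGGCGG and 2 CCAAT, CDKN2B had 2 GGGCGG, 1 of them on the other strand, and CDKN2D had 1 of each. Over the 35116 promoters of the table, 42.6% held GGGCGG and 32.0% held CCAAT within 250 bases before the start. GGGCGG, found in all 3 stretches, is thus common in promoters, and CCAAT was in those of CDKN1B and CDKN2D only. TTTCGCGC, TTTGGCGC and TTTGGCGG were in 0.439%, 0.55% and 0.538% of the promoters and GTAAACA in 2.98%. Most promoters thus lack these letters, and their absence here does not set the 3 stretches apart. The motif letters did not overlap each other in these 3 stretches, and a match describes letters, not a bound site.

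CDKN1C, which encodes p57, had the largest change of the 10 genes in Pa-Tu-8902. Its untreated libraries had 0.97, 1.5 and 1.47 TPM and its dox-treated ones 3.79, 4.86 and 4.61 TPM. The highest untreated library was thus well below the lowest dox-treated one, and the fold change was 2.95 (log2 1.56, SE 0.191, adjusted p = 6.36e-05). These are low levels, of 31 to 57 counts without dox and 130 to 210 with dox. In MIA PaCa-2 CDKN1C had 1.58, 1.35 and 1.58 TPM without dox and 2.11, 1.96 and 1.65 TPM with dox, a log2 change of 0.24 (SE 0.189) that did not pass the test (adjusted p = 0.332). CDKN1C-204 was the leading transcript, with a mean share of 70.2% of the gene's TPM in untreated and 70.1% in dox-treated Pa-Tu-8902. CDKN1C lies at chr11:2883213-2885775 on the - strand.

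CDKN1A, which encodes p21 and is the best known target of p53, was not called in either line. In Pa-Tu-8902 it had 5.24, 4.84 and 6.72 TPM without dox and 4.95, 4.13 and 3.66 TPM with dox. The TPM of the groups overlapped, and the log2 change of -0.50 (SE 0.148) did not pass the test (adjusted p = 0.0162). Without Pa-Tu-8902 untreated replicate 2 the change was -0.63 and was called (adjusted p = 0.006). In MIA PaCa-2 the 3 untreated libraries had 2.31, 2.09 and 3.07 TPM, the dox-treated ones 2.42, 2.31 and 2.96 TPM, and the log2 change was 0.08 (SE 0.147, adjusted p = 0.69). CDKN1A lies at chr6:36676460-36687337 on the + strand.

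Among the INK4 genes, CDKN2D, which encodes p19, fell in both lines. In Pa-Tu-8902 it had 42.7, 38.9 and 41.0 TPM without dox and 24.3, 24.1 and 26.7 TPM with dox. The 2 ranges were far apart, and CDKN2D fell by 0.79 on the log2 scale (SE 0.067, adjusted p = 4.23e-06), to 0.578 of the untreated level. In MIA PaCa-2 it had 19.5, 18.7 and 18.2 TPM without dox and 7.52, 8.11 and 7.34 TPM with dox. There CDKN2D fell by 1.37 on the log2 scale (SE 0.101, adjusted p = 1.8e-06), to 0.387 of the untreated level, and it was the only one of the 10 genes called in that line. Leaving out MIA PaCa-2 untreated replicate 2, the library that stood apart, gave -1.31 (adjusted p = 3.56e-09). Both annotated transcripts shared in the decrease: CDKN2D-201 went from 21.5 ± 2.4 to 13.5 ± 0.789 TPM and CDKN2D-202 from 19.4 ± 1.12 to 11.6 ± 0.691 TPM in Pa-Tu-8902 (SD, n = 3), and in MIA PaCa-2 they went from 11.0 ± 1.29 to 4.64 ± 0.497 TPM and from 7.81 ± 0.715 to 3.02 ± 0.38 TPM. CDKN2D-201 held a mean share of 52.5% and 53.8% of the gene's TPM without and with dox in Pa-Tu-8902. CDKN2D lies at chr19:10566460-10569059 on the - strand.

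CDKN2B, which encodes p15, was detected in Pa-Tu-8902 only. It had 10.4, 9.38 and 8.42 TPM without dox and 15.1, 11.9 and 12.8 TPM with dox. The dox-treated libraries were all above the untreated ones, and the fold change of 1.53 (log2 0.61, SE 0.072, adjusted p = 4.71e-05) was just past the limit. The call was lost by the fold limit without Pa-Tu-8902 untreated replicate 3 (log2 0.57) or dox replicate 1 (0.58), and with RSEM's effective lengths as offsets (0.43, adjusted p = 0.00659). The leading coding transcript, CDKN2B-201, made up 49.2% to 56.7% of the gene's TPM in untreated and 60.1% to 68.0% in dox-treated libraries. CDKN2B-202, also coding, had a mean share of 14.15% without and 11.18% with dox. The retained-intron transcript made up 25.2% to 37.9% and 18.4% to 31.7%. In MIA PaCa-2 all 6 libraries had 0 counts. The antisense gene CDKN2B-AS1, which overlaps it, was at 1.21 to 2.35 TPM without dox and 2.02 to 2.54 TPM with dox in Pa-Tu-8902, and at 0 in MIA PaCa-2. CDKN2B lies at chr9:22002903-22009305 on the - strand.

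CDKN2C, which encodes p18, was not called for dox in either line. In Pa-Tu-8902 it had 23.7, 24.5 and 25.1 TPM without dox and 32.4, 31.0 and 32.5 TPM with dox. These groups did not overlap, and the fold change of 1.25 (log2 0.32, SE 0.061, adjusted p = 0.00129) was below the limit. In MIA PaCa-2 it had 38.3, 37.9 and 40.4 TPM without dox and 36.1, 38.2 and 36.6 TPM with dox, a log2 change of -0.12 (SE 0.068, adjusted p = 0.166). CDKN2C lies at chr1:50960745-50974634 on the + strand.

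Among the D-type cyclins, CCND3 rose in Pa-Tu-8902. It had 53.7, 53.1 and 56.7 TPM without dox and 79.8, 92.0 and 91.1 TPM with dox. No dox-treated library came near the untreated range, and the fold change was 1.52 (log2 0.60, SE 0.08, adjusted p = 0.00011). As for CDKN2B, this was close to the fold limit, and the call was lost without Pa-Tu-8902 untreated replicate 1 (log2 0.57), untreated replicate 2 (0.56) or dox replicate 2 (0.57). In MIA PaCa-2 CCND3 had 46.7, 40.4 and 47.1 TPM without dox and 50.7, 50.0 and 46.5 TPM with dox, ranges that overlapped, with a log2 change of 0.06 (SE 0.058, adjusted p = 0.413). The leading 1 of 23 annotated transcripts had a mean share of the gene's TPM of 81.8% without and 78.2% with dox in Pa-Tu-8902 and of 88.7% and 86.2% in MIA PaCa-2. CCND3 lies at chr6:41934934-42050357 on the - strand.

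CCND1, the D-type cyclin with the highest mean level in both lines, although its range overlapped that of CCND3 in untreated MIA PaCa-2, was not called for dox in either. In Pa-Tu-8902 it had 196.0, 208.4 and 182.5 TPM without dox and 169.4, 186.3 and 184.8 TPM with dox, ranges that overlapped (log2 change -0.15, SE 0.059, adjusted p = 0.0564). In MIA PaCa-2 it had 48.0, 38.7 and 50.3 TPM without dox and 56.2, 56.0 and 52.6 TPM with dox. All dox-treated libraries were above the untreated ones there, and the difference of 1.19-fold (log2 0.25, SE 0.062, adjusted p = 0.00764) was below the fold limit. CCND1 lies at chr11:69641156-69654474 on the + strand.

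CCND2 was present in Pa-Tu-8902, at 4.11, 5.19 and 4.08 TPM without dox and 4.83, 4.99 and 4.47 TPM with dox, groups that overlapped (log2 change 0.03, SE 0.093, adjusted p = 0.828). In MIA PaCa-2 it had 1.25 to 13 counts without dox and 2 to 15 with dox, at 0.01 to 0.13 TPM, too few for a test. Its expected counts were not whole in 6 of the 12 libraries, as RSEM gives where it divides reads between genes, whereas those of the other 9 genes were whole in all 12. CCND2 lies at chr12:4269771-4305353 on the + strand. CCNE2, the E-type cyclin, had 10.4, 12.01 and 12.4 TPM without dox and 12.4, 11.1 and 12.1 TPM with dox in Pa-Tu-8902, which overlapped (log2 change -0.07, SE 0.08, adjusted p = 0.493). In MIA PaCa-2 it had 9.84, 8.87 and 8.72 TPM without dox and 7.57, 8.26 and 8.34 TPM with dox, and the log2 change of -0.21 (SE 0.085) did not pass the test (adjusted p = 0.069).

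The difference of the dox effect between the lines was tested as an interaction in 1 model of the 12 libraries. CDKN1C was the only one of 9 genes called, with a dox effect in Pa-Tu-8902 that exceeded the one in MIA PaCa-2 by 1.32 on the log2 scale (SE 0.271, adjusted p = 0.00144). Of all 16544 genes tested 10.4% were called, 6.56% with a higher and 3.86% with a lower effect in Pa-Tu-8902. A further 5 genes had an adjusted p below 0.01 and a difference under 1.5-fold, which makes 6 of 9 at any fold, beside 16.9% of all genes. The difference was 0.34 for CDKN1B (SE 0.08, adjusted p = 0.00396), 0.44 for CDKN2C (SE 0.095, adjusted p = 0.00193) and 0.54 for CCND3 (SE 0.106, adjusted p = 0.000935), each with the higher value in Pa-Tu-8902. For CCND1, whose change was below 0 in Pa-Tu-8902 and above 0 in MIA PaCa-2, it was -0.40 (SE 0.092, adjusted p = 0.00357). CDKN2D, which fell in both lines, differed by 0.58 (SE 0.121, adjusted p = 0.00165), the smaller decrease being in Pa-Tu-8902. This difference of 1.495-fold lay at the limit, and it was called in 13 of 21 alternatives. CDKN1A and CCNE2 did not pass the test (adjusted p = 0.0521 and 0.443). Nor did CCND2 (-0.44, SE 0.635, adjusted p = 0.679), but its counts in MIA PaCa-2 are too few to judge a difference. For CDKN2B, which had no counts in MIA PaCa-2, no difference can be estimated.

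**Figure D2:**
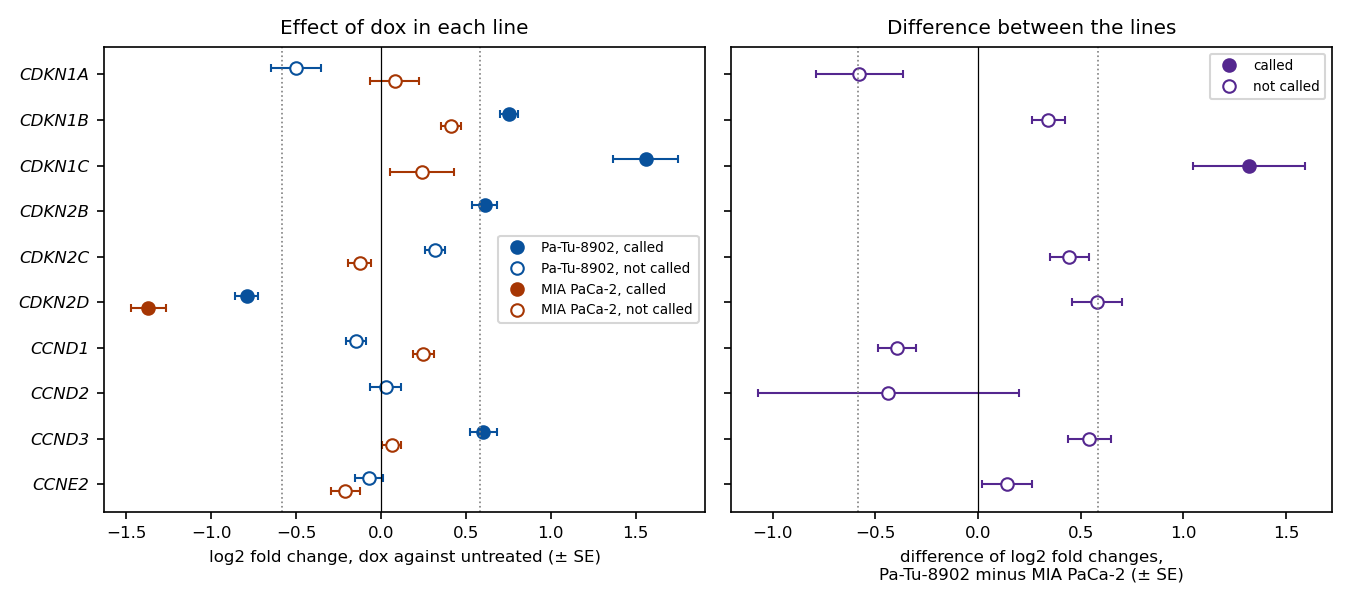
Left, log2 fold change of each gene with dox against untreated cells in Pa-Tu-8902 and MIA PaCa-2; right, the difference of these changes, Pa-Tu-8902 minus MIA PaCa-2. Bars are ± SE, filled points were called and dotted lines mark a fold change of 1.5; CDKN2D is called on the left in both lines and CDKN1C, at 1.32, is the only filled point on the right.

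Without dox the lines differed in 7 of the 10 genes, with 6 higher and 1 lower in Pa-Tu-8902. Of those higher, CCND2 and CDKN2B reached 10 counts in 3 libraries only with those of Pa-Tu-8902. Their direction and lack of overlap are thus no separate result, although the counts given here include them. The lines differ widely: 58.1% of 15608 genes were called, 28.9% higher and 29.3% lower in Pa-Tu-8902, and the groups did not overlap for 81.7% of all genes and for 9 of these 10. At any fold 72.9% of all genes had an adjusted p below 0.01, beside 7 of the 10. CCND1 was 4.08-fold higher in Pa-Tu-8902 (log2 2.03, SE 0.072, adjusted p = 1.64e-11), and CDKN1A 2.48-fold (log2 1.31, SE 0.163, adjusted p = 6.14e-06). CDKN2D was 2.15-fold (log2 1.10, SE 0.088, adjusted p = 6.76e-08) and CDKN1B 1.59-fold higher (log2 0.67, SE 0.068, adjusted p = 9.14e-07). CCND2 was higher by 6.73 on the log2 scale (SE 0.29, adjusted p = 1.16e-10), a value that rests on 1.25 to 13 counts per library in MIA PaCa-2 and ranged from 6.22 to 7.94 with 1 library left out. CDKN2B had 0 counts in MIA PaCa-2, so that its direction was fixed once it passed the count filter, and its p-value is left out. Its lowest normalized count in Pa-Tu-8902 was 484. The highest floor of 3 counts per library in MIA PaCa-2 was 3.09, so that CDKN2B was at least 157-fold higher in Pa-Tu-8902. CDKN2C was the gene that was lower in Pa-Tu-8902, at 0.622 of its level in MIA PaCa-2 (log2 -0.69, SE 0.076, adjusted p = 2.13e-06). Its call was lost by the fold limit without Pa-Tu-8902 untreated replicate 1 (-0.56) or replicate 2 (-0.57). CDKN1C, CCND3 and CCNE2 did not pass the thresholds, with log2 differences of -0.11, 0.19 and 0.31 and adjusted p of 0.67, 0.0235 and 0.0101. Given per length as TPM, the order of the 10 genes in untreated Pa-Tu-8902 was CCND1, CDKN1B, CCND3, CDKN2D, CDKN2C, CCNE2, CDKN2B, CDKN1A, CCND2 and CDKN1C, in which CDKN1B and CCND3, and CDKN1A and CCND2, overlapped. In untreated MIA PaCa-2 it was CCND1, CCND3, CDKN2C, CDKN1B, CDKN2D, CCNE2, CDKN1A, CDKN1C, CCND2 and CDKN2B, in which CCND1 and CCND3, and CDKN2C and CDKN1B, overlapped.

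Added up, the mRNA of the 6 inhibitors described here was, in Pa-Tu-8902, 138.8 ± 1.51 TPM without dox and 180.7 ± 6.39 TPM with dox (SD, n = 3), and its ranges did not overlap. In MIA PaCa-2 the sum was 96.8 ± 4.65 and 97.2 ± 1.33 TPM, which did overlap. These 6 are not all the inhibitor genes of the pathway, so the sum and the shares within it hold for these genes alone. CDKN1B made up 41.2% ± 1.24 of the summed TPM of the 6 without and 56.3% ± 0.38 with dox in Pa-Tu-8902, and 36.3% ± 1.88 and 49.5% ± 1.27 in MIA PaCa-2. The sum of the 3 CIP/KIP genes was 64.1 ± 2.33 and 110.5 ± 3.57 TPM without and with dox in Pa-Tu-8902 and 39.1 ± 3.78 and 52.6 ± 1.52 TPM in MIA PaCa-2. That of the 3 INK4 genes was lower with dox, at 74.69 ± 1.97 and 70.25 ± 2.86 TPM in Pa-Tu-8902 and 57.64 ± 0.995 and 44.6 ± 1.52 TPM in MIA PaCa-2. Among the D-type cyclins of Pa-Tu-8902, CCND3 made up 21.5% ± 1.71 of the TPM without and 32.1% ± 0.612 with dox and CCND1 76.8% ± 1.6 and 66.1% ± 0.49. In MIA PaCa-2 the share of CCND3 was 49.6% ± 1.4 and 47.1% ± 0.278. These sums and shares are descriptions, with no test, and a sum of mRNA is not a sum of protein.

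**Figure D3:**
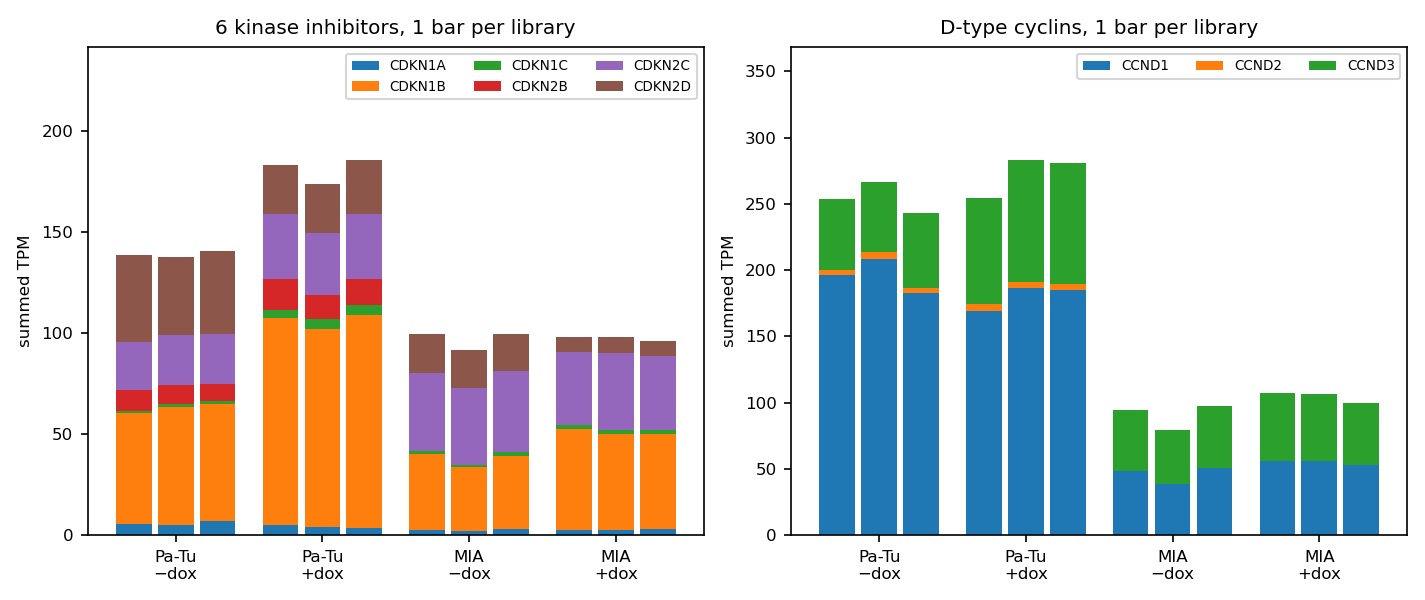
Summed TPM of the 6 inhibitors (left) and the 3 D-type cyclins (right), with 1 bar for each of the 12 libraries, stacked by gene, and axes that start at 0. The sum of the 6 is 137.6 to 140.5 TPM in untreated and 173.5 to 185.6 TPM in dox-treated Pa-Tu-8902, and the CDKN2D segment is shorter with dox in both lines.

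The other genes of the pathway were followed by lists. Beside their counts, 9.22% of all genes tested rose and 7.12% fell in Pa-Tu-8902, and 4.36% rose and 7.64% fell in MIA PaCa-2. An unadjusted p under 0.05 by edgeR, also counted below, was common among all genes. In Pa-Tu-8902 CCND1, at an unadjusted p of 0.0294, ranked 7794 by p among 14949 genes. In MIA PaCa-2 CCNE2, at 0.0314, ranked 6631 among 14589. Of 8 genes for G1 kinases and their activation, 0 rose and 2 fell in Pa-Tu-8902 (median log2 change -0.04), and 2 rose and 1 fell in MIA PaCa-2 (median -0.04). CDK7, the kinase that activates the other CDKs and is part of TFIIH, fell in both, by 1.24 (SE 0.065, adjusted p = 1.66e-07) and 1.25 (SE 0.096, adjusted p = 2.41e-06) on the log2 scale. CDK4 fell by 0.61 in Pa-Tu-8902 (adjusted p = 5.95e-05), from 236.1 ± 4.75 to 174.5 ± 0.814 TPM, a smaller change of -0.44 as a log2 ratio of TPM, which lies under the fold limit. CDK6 rose by 1.41 in MIA PaCa-2 (SE 0.078, adjusted p = 2.22e-07), from 4.75 ± 0.682 to 12.8 ± 0.811 TPM, as did CDC25A, a phosphatase that activates CDK2, by 1.00 (adjusted p = 4.68e-07). Both had log2 changes under the fold limit in Pa-Tu-8902, 0.43 for CDK6 (adjusted p = 3.37e-05) and 0.43 for CDC25A (adjusted p = 7.98e-05). The change of CDK6 was lower in Pa-Tu-8902 by a tested difference of -0.97 (SE 0.094, adjusted p = 6.93e-07).

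Of 13 pocket proteins, E2F and DP factors, 4 rose and 1 fell in Pa-Tu-8902 (median -0.07). In MIA PaCa-2 0 of 13 were called by edgeR or by DESeq2, and 6 had an unadjusted p under 0.05 (median -0.02). In Pa-Tu-8902 the pocket protein RBL2 (p130) rose by 0.61 and the repressor E2F5 by 0.64, while E2F4 fell by 0.61. Each of these differed between the lines by the interaction test, by 0.63 (adjusted p = 0.000126), 0.67 (adjusted p = 0.00374) and -0.62 (adjusted p = 7.36e-06). Of 22 genes driven by E2F at the G1/S boundary, 0 rose and 2 fell in each line, and 4 had a log2 change above 0 in Pa-Tu-8902 and 10 had one in MIA PaCa-2 (medians -0.22 and -0.02). The 2 that fell were TYMS, thymidylate synthase, by 0.70 and 0.60, and ORC1, of the origin recognition complex, by 0.67 and 0.66 in Pa-Tu-8902 and MIA PaCa-2, respectively.

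Of 14 genes for the turnover of inhibitors and G1 cyclins, 0 were called in Pa-Tu-8902 by edgeR or DESeq2, with 7 at an unadjusted p under 0.05. In MIA PaCa-2 1 of them rose, SKP2, which marks CDKN1B for degradation (log2 0.62, SE 0.059, adjusted p = 1.21e-05). Of 7 genes for the MuvB core and factors that join it, 0 were called in either line by edgeR or DESeq2, with 2 and 3 at an unadjusted p under 0.05. The pocket proteins, E2F and DP factors that make up the rest of the DREAM complex are not in this list and are counted above. Of 7 other G1 regulators, 2 rose in Pa-Tu-8902, CCNY (0.80) and CABLES1 (1.06), and 0 of 6 were called in MIA PaCa-2 by edgeR or DESeq2, with 3 at an unadjusted p under 0.05. Of the other cyclins, 2 of 16 rose and 0 fell in Pa-Tu-8902, and 1 of 17 rose and 2 fell in MIA PaCa-2. CCNG2, an unconventional cyclin linked to arrest, rose by 1.17 in Pa-Tu-8902 (SE 0.08, adjusted p = 9.27e-07) and had a log2 change of -0.50 in MIA PaCa-2, a tested difference of 1.67 (SE 0.118, adjusted p = 1.98e-08). Of 23 tested p53 target genes, a list that leaves CDKN1A out, 3 rose and 4 fell in Pa-Tu-8902 and 3 rose and 5 fell in MIA PaCa-2 (medians 0.06 and -0.10). TP53INP1, a stress-induced gene that acts in autophagy, rose by 2.97 in Pa-Tu-8902 (SE 0.245, adjusted p = 3.68e-06), from a low level of 0.08 to 0.12 TPM without dox to 0.69 to 0.9 TPM with dox. TP53I3, a quinone oxidoreductase, fell by 0.98 in Pa-Tu-8902 (adjusted p = 3.59e-06) and by 0.89 in MIA PaCa-2 (adjusted p = 3.78e-05). PLK3, a stress-responsive polo-like kinase, fell by 0.88 in Pa-Tu-8902 (adjusted p = 4.14e-06). In MIA PaCa-2 CCNG1, an unconventional cyclin, fell by 1.17 and FDXR, ferredoxin reductase, by 1.01, and the death receptor gene TNFRSF10B rose by 0.68. These lists are described by their counts and medians only.

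**Figure D4:**
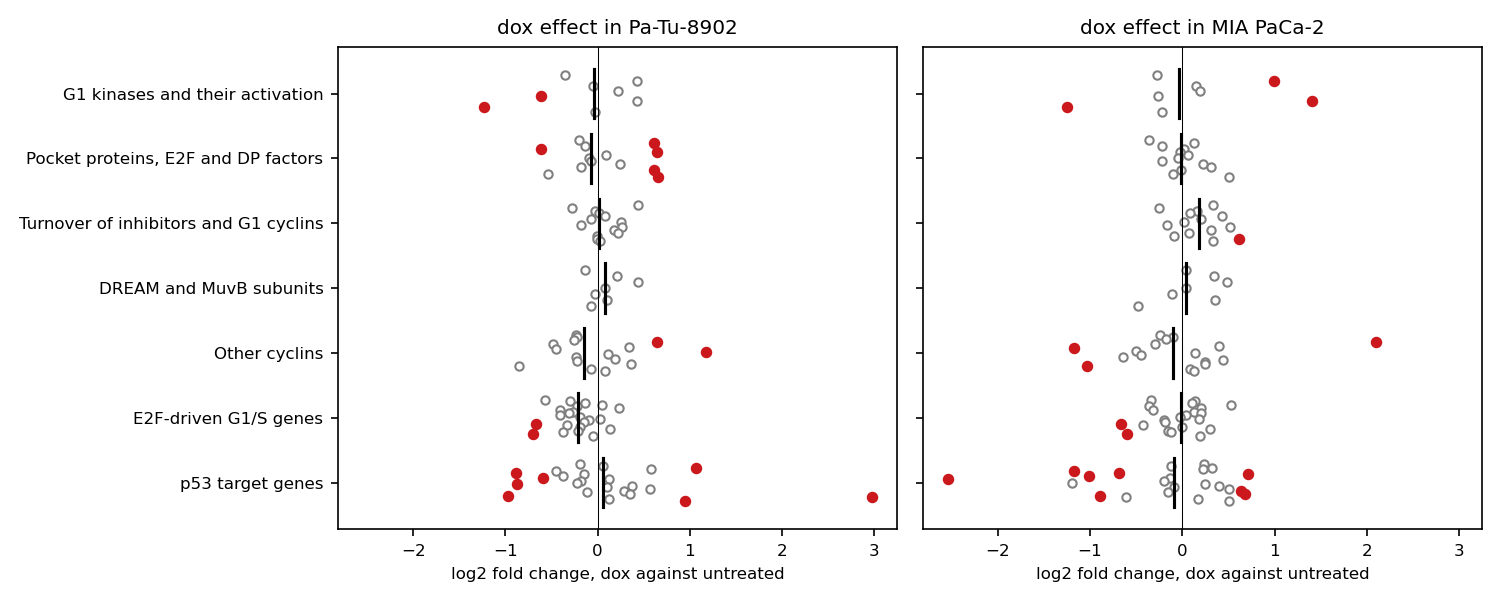
Log2 fold change with dox against untreated cells of the tested genes of 7 pathway lists, in Pa-Tu-8902 (left) and MIA PaCa-2 (right). Each point is a gene, red points were called, and the black bar is the median of the list; 2 of 22 E2F-driven genes are red in each line, both below 0.

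Across the 12 libraries, after centring log2(TPM + 1) within each line, the genes most like CDKN1B among 10234 were ZFAND6, CLDN1 and C6orf120 (Pearson's r = 0.995, 0.995 and 0.993). Those most like CDKN2D were B3GNT2, TSNAX and H2AFV (r = 0.991, 0.989 and 0.989), and those most like CCND3 were MOSPD3, ATP6AP1 and HS6ST1 (r = 0.989, 0.985 and 0.985). For CDKN2B they were GRHL2, TNNI2 and AC136475.3 (r = 0.996, 0.976 and 0.968), where only the 6 Pa-Tu-8902 libraries vary. CDKN1C, with a mean below 5 TPM, was left out. These correlations describe the 12 libraries, which share the contrast of dox against no dox within each line.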

How the data were processed

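RNA-seq libraries of 2 iDox-shGOT1 lines, Pa-Tu-8902 and MIA PaCa-2, were analysed from the deposited tables, with 3 libraries in each of 4 groups named by the sample titles, on which the assignment to a line rests. Strand-specific poly(A) libraries were sequenced, and, per the labels and the study's methods, the authors trimmed reads with Trimmomatic 0.39 and ran RSEM 1.3.1 with STAR 2.5.2a on GRCh38 at default parameters. The authors deposited expected counts, TPM and FPKM per gene and isoform TPM, with replicates kept apart. The deposited expected counts carry no normalization or filter, and 5.34% are not whole. RSEM's deposited effective lengths entered 1 alternative, deposited FPKM values the components (log10(FPKM + 1)) and a check of the order of levels.

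EdgeR 4.0.16 in R 4.3.3 (TMM, glmQLFit, glmQLFTest) was run on the rounded counts of genes that reached 10 counts in 3 or more libraries of a comparison. The comparisons were dox against untreated in each line, the untreated lines, and the interaction over all 12 libraries. Standard errors are the absolute log2 fold change over the square root of F. Likeness used genes with a mean of at least 5 TPM. Alternatives were DESeq2 1.42.0, its size factors, other count filters, effective lengths, a replicate block, 1 fit of all 12 libraries, other thresholds, and each library left out in turn. The steps were tested on simulated data. The 12 pairs of replicates gave a ratio of chi-square to degrees of freedom between 2.25 and 27.3, so no library was a duplicate. Positions are those of GENCODE release 44, matched on Ensembl identifiers.

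The members and lists were chosen with earlier results of these data known. The motifs searched, the promoters shown, the components and the search for overlapping genes were added after values of these genes had been seen. All 10 members are described, and from other lists at most the 3 called genes with the smallest p in a comparison. Not every gene of the lists, or that this rule names, is reported here. Tables of single libraries equalled the series tables. Isoform values are shares of TPM with no test, and counts and FPKM of isoforms were not used.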

Additional observations from a re-analysis of the deposited data

Results flagged for a closer look

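The effect of dox differed between Pa-Tu-8902 and MIA PaCa-2 by the interaction test of edgeR for 6 of 9 genes, at an adjusted p below 0.01 and any fold, which 16.9% of all genes passed. The difference in log2 fold change was 1.319 for CDKN1C, the only one past the fold limit. It was 0.58 for CDKN2D, 0.54 for CCND3, 0.44 for CDKN2C and 0.34 for CDKN1B, and -0.40 for CCND1. The fold limit was dropped for this list after the values were seen. With 3 libraries a group, single libraries were not tested as outliers.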

How the results depend on the processing

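Over 4 comparisons and the order of levels, 124 summary values moved by less than 1.5 times under the alternatives and 23 by more. For single genes, 587 values kept their direction and call, 23 gained a call, 14 lost one and 7 turned direction. The cause was not tested, except that other thresholds count other genes. Without a fold limit 5692 genes were called for Pa-Tu-8902, 3973 for MIA PaCa-2 and 2799 for the difference of the effects, with 3 of the tested genes in MIA PaCa-2 and 6 for the difference; with a fold of at least 2 these were 1111, 673 and 837 genes, and 1 gene in Pa-Tu-8902. The number of the genes described here called for the difference between the lines was 2 under DESeq2, 2 with its size factors, 2 with no filter, 2 with at least 10 counts in every library, and 1 to 3 with 1 library left out; the added genes were CDKN2D and CCND3, which lie at the fold limit. Leaving out 1 library gave 4 to 5 called genes for Pa-Tu-8902, 1 for MIA PaCa-2 and 5 to 7 between the untreated lines, where CDKN2B fails the filter on counts without a Pa-Tu-8902 library. Of the 3 genes most like CDKN2B, 0 were the same with log2(TPM + 0.1) and 1 with a mean of at least 1 TPM.

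The direction turned in 5 results: CCND2 in Pa-Tu-8902 (-0.042 to 0.10 with 1 library left out, below 0 without untreated replicate 1 or dox replicate 2), CCNE2 in Pa-Tu-8902 (-0.13 to 0.0014, above 0 without untreated replicate 3), CDKN1A in MIA PaCa-2 (-0.012 with effective lengths), CDKN1C between the untreated lines (-0.19 to 0.15, above 0 without Pa-Tu-8902 untreated replicate 1), and CCND2 for the difference of the effects (-1.65 to 0.25, above 0 without MIA PaCa-2 untreated replicate 2 or dox replicate 3), where its counts are low.

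Libraries with the same replicate number did not deviate together: their residuals correlated at -0.0808 to 0.139 within Pa-Tu-8902, -0.0935 to 0.0652 for MIA PaCa-2 libraries and -0.152 to -0.0231 between the untreated lines, and 2, 1 and 0 of 3 libraries correlated best with their own number. With the replicate block 2380, 1735, 8891 and 1611 genes were called in the 4 comparisons, and 5, 1, 7 and 1 of the genes described here.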
